A study of Mus musculus with 12 samples.

Results

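The genes examined were the major urinary protein genes Mup3, Mup4, Mup5, Mup7, Mup11, Mup12 and Mup20, chosen by symbol from the table of all genes, 7 of 21705. The table held 13 further Mup rows, 12 listed by symbol and 1 listed under the identifier of Mup18, so that the rows matched to the family came to 20. The samples were livers of C57BL/6J female mice of 10 to 12 weeks, from which messenger RNA was sequenced. Mice received either saline (n = 6) or LNA29 (n = 6), a mixture of the locked nucleic acid inhibitors LNA29a and LNA29bc at 20 mg/kg each, both groups by tail vein. All livers were taken on day 7 after an overnight fast (18 h), and animals are named by the numbers in their labels (saline 43, 45, 47, 49, 51 and 53, LNA29 44, 46, 48, 50, 52 and 54). Each label names its own animal, and the polyadenylated RNA of a whole liver was read, so that fewer cells of a type and less RNA per cell cannot be told apart.

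Major urinary proteins are small secreted lipocalins, barrel-shaped carriers of hydrophobic ligands. They are made mainly by hepatocytes, pass through the blood into urine, and there hold and slowly release volatile pheromones. Their transcription in liver is known to depend on pulses of growth hormone acting through STAT5, and is usually higher in males than in females. The genes lie side by side in a cluster of very similar copies, a central group that is nearly identical and an outer group that has diverged, to which Mup3, Mup4, Mup5 and Mup20 belong. Mup20 encodes darcin, a male pheromone, and Mup4 is best known from nasal and lachrymal glands.

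How alike the copies are decides how well a read of 100 bases can be given to one of them, so a stretch of coding sequence is shown for each gene. The stretch is the 30-base window with the most differences from Mup12 over the 7 genes, at coding bases 231 to 260 of Mup12 and at the aligned place in the others (GENCODE release M21, GRCm38, read 5′ to 3′ on the coding strand). Capitals mark bases that differ from Mup12.
Mup12: aagagatgaagagtgctcggaattatctat
Mup11: aagagatgaagagtgctcggaattatctat
Mup7: aagagatgaagagtgctcCgaattatctat
Mup20: TaTaAatgaGgagtgctcTgaaAtatTtTt
Mup5: TaTagatgaagagtgcAcTgaaAtatAtTt
Mup4: TaTagatgGagagtgctcTgaaAtatTtTt
Mup3: TGTaAatgaagagtgcAcCgaaAtGActGC
Mup11 did not differ from Mup12 in this window, Mup7 differed at 1 base, and Mup4, Mup5, Mup20 and Mup3 differed at 7, 7, 8 and 11 bases. Over the whole coding sequence Mup7 and Mup11 differed from Mup12 at 4 and 5 bases, while Mup20, Mup5, Mup4 and Mup3 differed at 51, 53, 61 and 96.

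In the GRCm38 assembly all 7 genes lie on the minus strand of chromosome 4, from Mup4 (chr4:59956804-59960710) through Mup7 (chr4:60066469-60070475), Mup11 (chr4:60658466-60662411), Mup12 (chr4:60737383-60741326), Mup5 (chr4:61831319-61835233) and Mup20 (chr4:62050234-62054158) to Mup3 (chr4:62083476-62087342). The values themselves were made on the mm9 build, so these positions serve only to show the order of the genes. Of all 100-base windows of each transcript, 100% occurred in no other gene for Mup4, 98.7% for Mup5, 97.1% for Mup3 and 61.2% for Mup20. The share was 22.5% for Mup12, 16.5% for Mup11 and 12.9% for Mup7. Most windows of these last 3 genes thus occur in another copy too, and their values are estimates of how shared reads divide.

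LNA29 was directed at the miR-29 family, whose mature sequences are shown with the seed (bases 2 to 8) in capitals (RefSeq, GRCm38.p6).
mmu-miR-29a-3p: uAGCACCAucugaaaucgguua
mmu-miR-29b-3p: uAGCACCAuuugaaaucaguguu
mmu-miR-29c-3p: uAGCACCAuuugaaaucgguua
The 3 miRNAs share 1 seed. Its match in messenger RNA, TGGTGCT on the coding strand, was not found in the 3′ UTR of any of the 7 genes (274 to 402 bases). Of the 1678 genes with a 3′ UTR of that length, 3.64% held it. Mup20 held 1 match elsewhere in its transcript.

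Read depth was between 7696081 and 19062437 reads on genes per liver (median 12011982 in saline and 9123458 in LNA29 livers). The deposited signal is the number of reads estimated for a gene, scaled so that the upper quartile of genes with reads in that liver becomes 1000, and 1 read was worth between 9.80 and 24.4 of it. Albumin took between 35.7% and 46.9% of the reads, with the lowest share in saline 49, and the hepatocyte markers (Alb, Ttr, Apoa1, Tat, Cps1 and Hnf4a) were present in every liver. Groups were compared on log2(signal + 1) by limma across the 12486 genes whose mean signal reached 10, where 20 genes (0.16%) passed an adjusted p of 0.05. The SE given with a log2 fold change is the moderated one of limma, drawn toward genes of similar signal, and is not the spread of that gene alone. Single genes were also compared by a two-sided exact permutation test over the 924 divisions of the livers, whose smallest possible p is 0.00216.

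The family as a whole was among the most abundant products of these livers, and 1 animal stood far below the rest. The 20 rows took between 5.33% and 11.7% of the reads in saline livers (median 8.07%). In LNA29 livers they took between 8.34% and 10.3% in 5 animals and 0.966% in LNA29 48. The summed signal of the 20 rows was 1643103 in LNA29 48, against a median of 16769027 over the other 11 livers, 10.2-fold higher, and a lowest value of 4383755, in saline 49. A further row, LOC100048885, matched no Mup symbol in the RefSeq table and is not among the 20, and whether it is a Mup copy was not tested. It took 0.370% of the reads of LNA29 48 and between 1.41% and 4.87% elsewhere, and with it added the 20 rows would take 1.34% in LNA29 48 and between 9.14% and 16.6% in the other livers. Leaving Alb out of the total, the family took 1.74% of the reads of LNA29 48 and between 8.29% and 20.7% elsewhere.

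**Figure D1:**
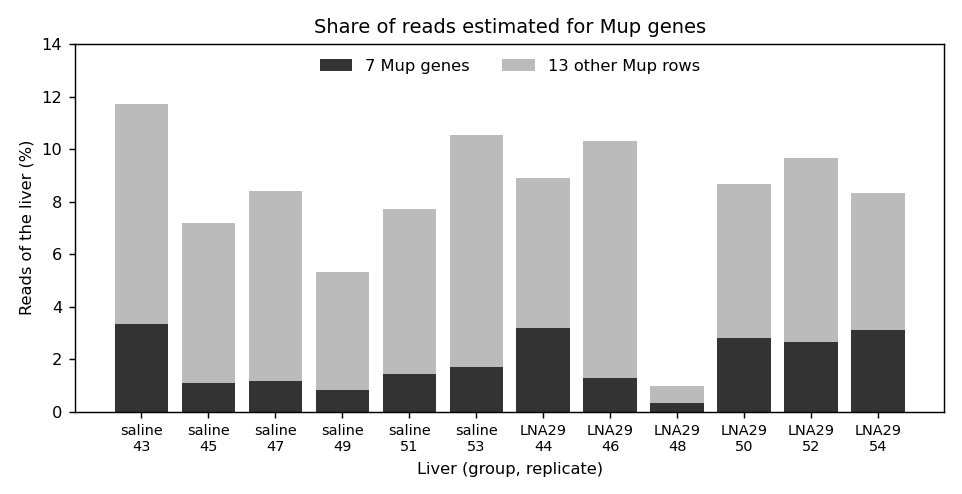
Share of all reads of a liver estimated for Mup genes (y axis, percent, from 0) in each of the 12 livers (x axis, group and replicate), with the 7 genes in dark grey and the other 13 rows in light grey. LNA29 48 stands at 0.966%, while the other 11 livers lie between 5.33% and 11.7%.

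The 7 genes together took between 0.811% and 3.34% of the reads in saline livers (median 1.30%) and between 0.313% and 3.17% in LNA29 livers (median 2.74%). Their summed signal ran from 666386 to 5259755 with a median of 2542136 in saline livers and from 531985 to 5969618 with a median of 4536996 in LNA29 livers. The groups overlapped. The lowest liver of each group was saline 49 and LNA29 48, and of the 7 genes LNA29 48 was below all other livers in 5. No test was made on the sum, since its members were given by name.

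Compared per kilobase of transcript, Mup3 had the highest median signal over the 12 livers, 1071394, followed by Mup12 with 868137, Mup5 with 310521, Mup11 with 239626, Mup7 with 144414 and Mup20 with 76219. Mup4 was lowest with 713. Mup12 ranged from 214 to 4078269 per kilobase, which covered the medians of all 7 genes, so its place in this order is not set beyond the spread between livers. The ranges of neighbours in this order overlapped, except that Mup4 lay below Mup20 in every liver.

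Mup3 encodes a major urinary protein of the outer group and had the highest median signal of the 7 genes per length. It ran from 431496 to 1777218 (median 1006305) in saline livers and from 379066 to 1295044 (median 1054252) in LNA29 livers. The groups overlapped throughout, with LNA29 48 and saline 49 lowest in signal. As a share of reads saline 49 was not the lowest of its group. Mup3 took 43150 of its 8217212 reads, against 86771 of 17522197 in saline 51, a smaller share. The place of saline 49 for Mup3 thus depends on the scaling. The log2 fold change was -0.14 ± 0.45 (SE, n = 6 per group; limma adjusted p = 0.972, exact permutation p = 0.693). The coefficient of variation was 45.3% in saline and 32.1% in LNA29 livers, and 33.6% and 10.8% with saline 49 and LNA29 48 left out. Without LNA29 48 alone, the log2 fold change was 0.11 ± 0.41 (adjusted p = 0.979).

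Mup5, also of the outer group, was likewise lowest in LNA29 48 and in saline 49. Its signal ran from 86300 to 405527 (median 268665) in saline livers, and LNA29 48 had 51774 while the other 5 LNA29 livers lay between 271537 and 318469. The coefficient of variation was 41.9% in saline and 39.7% in LNA29 livers, and 24.8% and 5.91% with saline 49 and LNA29 48 left out. The log2 fold change was -0.13 ± 0.45 with all livers (limma adjusted p = 0.974) and 0.29 ± 0.33 without LNA29 48 (adjusted p = 0.890).

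Mup4, the copy known from glands of the head, was read at a low level. It had between 180 and 1195 (median 658) in the saline group and between 260 and 1054 (median 633) in LNA29 livers, which came to between 16.0 and 68.2 reads per liver. The lowest value belonged to saline 49, and LNA29 54 was below LNA29 48. The log2 fold change was -0.15 ± 0.42 (limma adjusted p = 0.969, exact permutation p = 0.786). Of 4 listed genes of salivary or lachrymal glands found in the table, Smr2 and Dcpp1 had no reads in any liver and Aqp5 had at most 1. The fourth, Amy1, an amylase gene that the liver also expresses, had between 2876 and 7520 in saline and 6143 and 8822 in LNA29 livers (log2 fold change 0.41 ± 0.19, limma unadjusted p = 0.0458, adjusted p = 0.621).

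Mup20, which encodes darcin, had the smallest unadjusted p of the 7 genes. It ran from 43263 to 80403 (median 50819) in saline livers and from 57488 to 104316 (median 89073) in LNA29 livers. Of the LNA29 livers, 4 lay above the highest saline liver in signal, LNA29 54 lay just below it, and LNA29 44 lay among the saline values. This order depends on the scaling. As a share of reads saline 49 (4366 of 8217212) lay above LNA29 48 (4563 of 9015624), though below it in signal. Means were 55488 ± 14328 and 85072 ± 16131 (SD, n = 6 each), and the log2 fold change was 0.63 ± 0.20 (limma unadjusted p = 0.00522, adjusted p = 0.302; exact permutation p = 0.0130). Mup20 therefore did not pass the threshold over all genes. The result hardly depended on LNA29 48, in which Mup20 stood at 86094, 1.35-fold above the median of the other livers, and the log2 fold change without that liver was 0.62 ± 0.20 (adjusted p = 0.318).

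**Figure D2:**
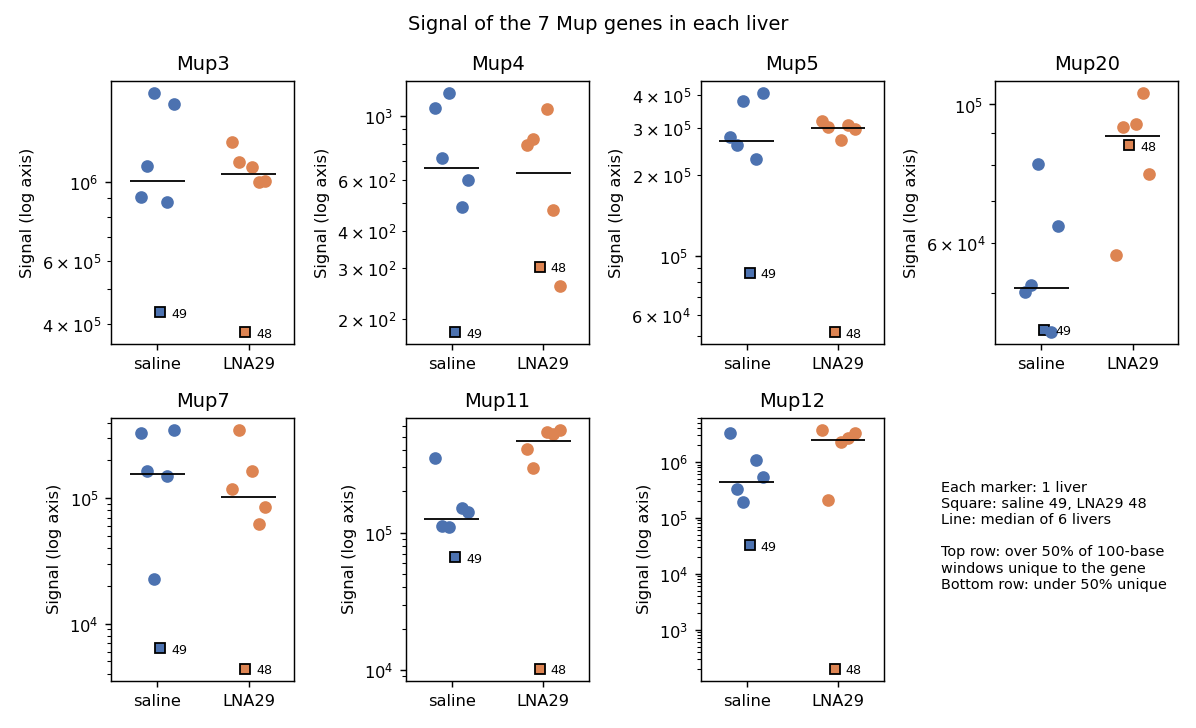
Signal of each of the 7 Mup genes (y axis, log scale) in 6 saline and 6 LNA29 livers, with 1 marker per liver, the median as a line, and saline 49 and LNA29 48 as squares. LNA29 48 is the lowest liver in 5 of the 7 panels and lies within the LNA29 group for Mup20.

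Mup7, Mup11 and Mup12 belong to the central group. Mup7 and Mup12 differed far more between saline livers than the outer genes, with a standard deviation of log2(signal + 1) of 2.33 and 2.28. For Mup11 it was 0.79, beside 0.80 for Mup5 and 0.98 for Mup4. In LNA29 livers that of Mup11 was 2.26, or 0.39 without LNA29 48. Mup7 ran from 6368 to 351424 (median 156954) in saline livers and from 4359 to 351053 (median 101398) in LNA29 livers. The ranges were nearly the same, with saline 49, saline 47 and LNA29 48 low. The log2 fold change was -0.23 ± 1.0 (limma adjusted p = 0.979) and 0.58 ± 0.83 without LNA29 48 (adjusted p = 0.916).

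Mup11 changed its standing with 1 liver. It ran from 66101 to 349830 (median 126672) in saline livers and from 10191 to 562149 (median 462045) in LNA29 livers. The 5 LNA29 livers other than 48 lay between 294754 and 562149, and 5 of 6 saline livers lay below all of them, while saline 43 exceeded LNA29 46. With all livers the log2 fold change was 0.83 ± 0.76 (limma adjusted p = 0.863, exact permutation p = 0.448). Without LNA29 48 it was 1.74 ± 0.34, or 3.34-fold higher in LNA29 livers (adjusted p = 0.0422, exact permutation p = 0.00649), in a comparison where 29 genes (0.233%) passed. LNA29 48 was singled out for its low Mup signal, that of Mup11 included, so the p-values without it are a description only. The adjusted p of Mup11 ranged from 0.00489 to 0.981 over all alternatives. As 16.5% of its windows were unique, how much of the Mup11 signal belongs to other copies was not tested.

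Mup12 had the widest range of the 7 genes. It ran from 32281 to 3341638 (median 433800) in saline livers and from 198 to 3776477 (median 2454676) in LNA29 livers. In LNA29 48 the signal stood for 10.5 reads, against at least 3228 in every other liver. Of the other LNA29 livers 4 had between 2260441 and 3776477 and LNA29 46 had 210399, while saline 43 alone of its group exceeded 1073015. The log2 fold change was -0.06 ± 1.87 (limma adjusted p = 0.994) and 2.12 ± 0.94 without LNA29 48 (unadjusted p = 0.0377, adjusted p = 0.560, exact permutation p = 0.126).

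In limma with all livers, 0 of the 7 genes passed an adjusted p of 0.05, and 1, Mup20, had an unadjusted p under 0.05, against 7.91% of all genes tested (1.95% counting higher and 5.97% counting lower genes). The median log2 fold change of the 7 was -0.13, beside -0.09 for all 12486 genes. Without LNA29 48, 1 of 7 passed the adjusted threshold (Mup11) and 3 had an unadjusted p under 0.05 (Mup11, Mup12 and Mup20, all higher), against 8.28% of 12466 genes (2.27% counting higher and 6.01% counting lower genes), and the median was 0.58 beside -0.07. No member separated the groups completely in either comparison, where 0.985% and 1.63% of all genes did. Since LNA29 48 was singled out for its low Mup signal, p-values and counts without it are descriptions, here and for single genes.

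**Figure D3:**
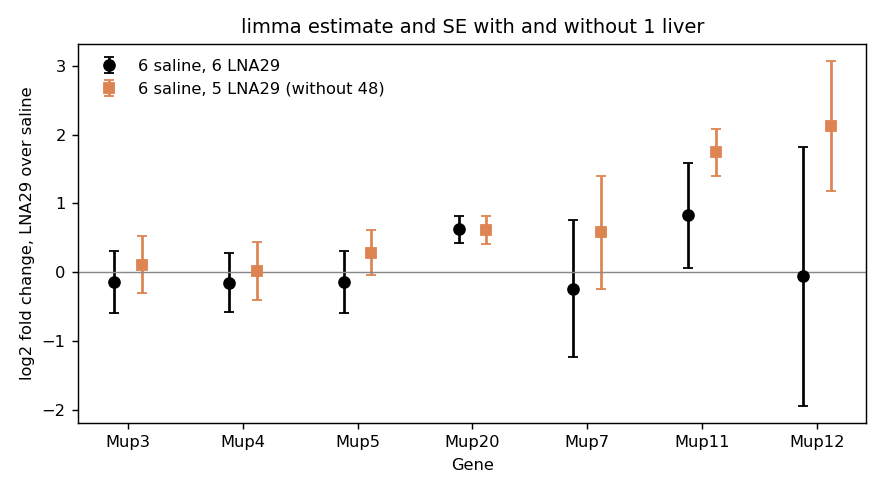
Log2 fold change of LNA29 over saline livers (y axis, limma estimate with its standard error) for the 7 genes, with all 12 livers (black circles) and without LNA29 48 (orange squares). Mup20 stays at 0.63 and 0.62, while Mup11 moves from 0.83 to 1.74 and Mup12 from -0.06 to 2.12. LNA29 48 was singled out for its low Mup signal.

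The central copies can be set beside each other as a sum, since most of their windows occur in other copies. Mup7, Mup11 and Mup12 together had between 104751 and 4024418 (median 817990) in the saline group and between 856206 and 4297825 in the 5 LNA29 livers other than 48, which had 14749. The 14 rows with under 50% unique windows, among them these 3 genes, summed to between 3820945 and 17526835 (median 14244199) in saline livers and to between 12210882 and 17812220 in the same 5 LNA29 livers. The ranges of this larger sum overlapped, and 11 rows other than Mup7, Mup11 and Mup12 made up the rest of it. LNA29 48 had 1124781, and the median of the other livers was 13.4-fold above it. For the 4 outer genes Mup3, Mup4, Mup5 and Mup20 the sum in LNA29 48 was 517236, and the median of the other livers was 2.74-fold above it.

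Over the 11 livers other than LNA29 48, the standard deviation of log2(signal + 1) was between 0.45 and 0.86 for the 5 rows with over 50% unique windows and enough reads (Mup3, Mup4, Mup5, Mup20 and Mup21), and between 0.79 and 3.10 for the 14 rows under 50%. Among the 7 genes it ran from 0.46 for Mup20, 0.54 for Mup3 and 0.59 for Mup5 through 0.86 for Mup4 and 1.10 for Mup11 to 1.78 for Mup7 and 2.24 for Mup12. Saline and LNA29 livers were pooled for it, so a difference between the groups is part of this spread. Within groups Mup11 had 0.79 in saline livers and 0.39 in LNA29 livers other than 48, below the 0.98 and 0.81 of Mup4. The sum of the 14 rows had a standard deviation of 0.62, below that of each of its rows. These are descriptions over rows that share reads, without a test.

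**Figure D4:**
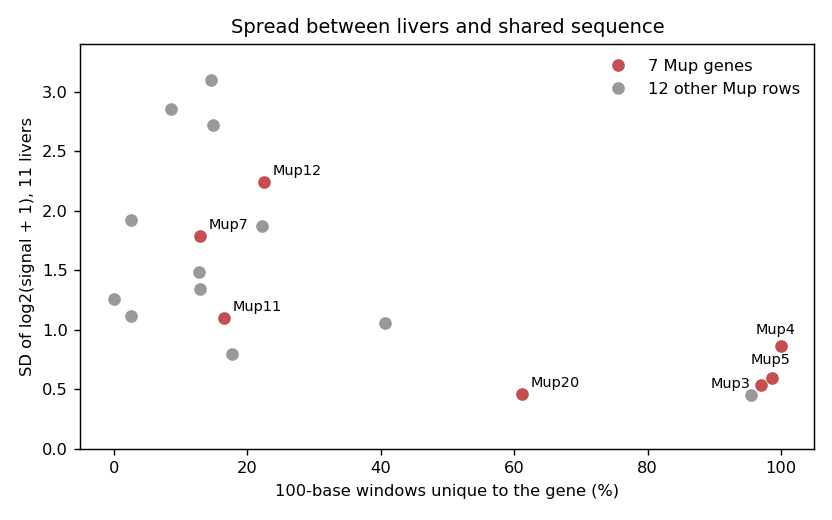
Standard deviation of log2(signal + 1) over 11 livers (y axis, LNA29 48 left out) against the percent of 100-base windows found in no other gene (x axis) for 19 Mup rows, with the 7 genes in red. Mup3, Mup4, Mup5 and Mup20 lie to the right with a spread of 0.86 or less, and Mup7, Mup11 and Mup12 lie to the left with 1.10 or more. Saline and LNA29 livers are pooled, so a difference between the groups is part of the spread.

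LNA29 48 was not equally low in all copies. It was below all other livers in 15 of the 19 rows that had reads beyond the floor of 3, and above them in 1, Mup13. Over all tested genes it was below all other livers in 16.0%, the highest share of any liver. Among the 7 genes the median of the other livers exceeded it 5406-fold for Mup12, 34.5-fold for Mup7, 28.9-fold for Mup11, 5.73-fold for Mup5, 2.90-fold for Mup3 and 2.37-fold for Mup4, while Mup20 was higher. Mup13, a central copy whose transcript is 17.7% unique, had 965399 there and between 26361 and 113172 elsewhere. It made up 58.8% of the family signal of that liver. Saline 49 was also low, at least 10-fold below the median of the other livers in 5 rows (Mup7, Mup12, Mup9, Mup14 and Mup18). The same held in 3 rows for LNA29 52 (Mup8, Mup9 and Mup14), in Mup8 for saline 51 and in Mup10 for LNA29 50, beside 12 rows for LNA29 48. Over all tested genes with a median of at least 100 such genes numbered 11 in saline 49 and 57 in LNA29 48. LNA29 52, saline 51 and LNA29 50 had 18, 1 and 6. LNA29 46 had 25 and saline 47 had 20, none of them a Mup row. The remaining livers had between 0 and 5, again without a Mup row.

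**Figure D5:**
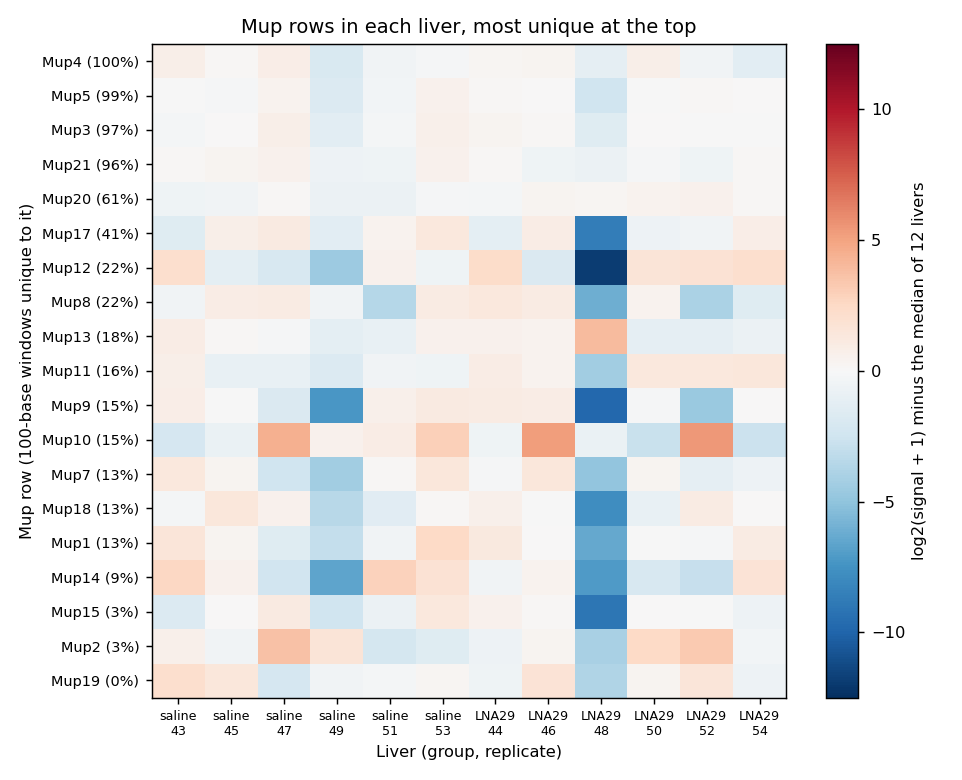
Log2(signal + 1) of 19 Mup rows (y axis, with the percent of windows unique to each) minus the median of the row over 12 livers, by liver (x axis); red is above and blue below the median. The column of LNA29 48 is blue in most rows and red for Mup13, and the rows at the top, with the most unique windows, are the palest.

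Marker genes of other liver cells were summed in each liver to set beside the low Mup signal of LNA29 48. Its hepatocyte marker signal was 86537547, within the range of the LNA29 livers (78684071 to 93366512), while saline 49 had 31775220, the lowest of all. Most of this sum was Alb, which took 44.5% of the reads of LNA29 48 and 35.7% of those of saline 49. The sum therefore says little of the other hepatocyte markers. Stellate markers (6 of 6 in the table) summed to 17736 in LNA29 48 and to between 13560 and 22000 in saline livers, and Kupffer cell markers (6 of 7) to 9755 and to between 7234 and 10696. Sinusoidal endothelial markers (6 of 6) summed to 4321, inside the LNA29 range of 3805 to 5000 and below the saline range of 4404 to 5090. LNA29 48 was the highest of its group for bile duct markers (887, 6 of 6), lymphocyte markers (586, 4 of 4) and blood markers (171275, 3 of 5), where saline livers reached 892, 841 and 154110. The part of these cells in the Mup values was not tested.

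Of 13 other Mup rows, 0 passed the adjusted threshold and 0 had an unadjusted p under 0.05 in limma, against 0.16% and 7.91% of all genes. With Mup6 included, 12 had a negative log2 fold change and 1 a positive one, where 7671 of the 12486 genes tested were negative. The median was -0.69, also with Mup6, beside -0.09 for all genes. Without LNA29 48 the median was -0.07 and again 0 had an unadjusted p under 0.05, against 8.28% of all genes. Mup1, Mup2, Mup9, Mup15, Mup18 and Mup19 then turned positive and Mup13 negative, while the others stayed negative. Rows of central copies share reads, so their signs are not independent of each other. The log2 fold changes with all livers were -1.63 for Mup17, -1.5 for Mup14, -1.22 for Mup8, -1.10 for Mup15, -1.01 for Mup9, -0.69 for Mup18, -0.64 for Mup1, -0.42 for Mup19, -0.37 for Mup10, -0.31 for Mup21, -0.12 for Mup2 and 0.45 for Mup13. Standard errors ran from 0.24 for Mup21, one of the outer copies, to 1.69 for Mup9. Mup6 had at most 2 reads in any liver, below the floor of 3, and no fold change is given for it.

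Genes of growth hormone signalling and other regulators of Mup transcription were read next to the family. Of 23 listed, 22 were tested, 1 fell and 0 rose past the adjusted threshold, 1 higher and 3 lower had an unadjusted p under 0.05 (1.95% and 5.97% of all genes), and the median log2 fold change was -0.21, or -0.09 without LNA29 48. The gene that fell was Igfals, the liver-made subunit that holds insulin-like growth factor in the circulation, which is a target of growth hormone and not a known regulator of Mup genes. It had between 3778 and 4719 in the saline group and between 1537 and 3054 in LNA29 livers, without overlap, a log2 fold change of -0.81 ± 0.16 (limma adjusted p = 0.0468, exact permutation p = 0.00216). The call held in 8 of 22 alternatives (adjusted p from 0.00749 to 0.289) and was lost without any single liver except LNA29 48. Ghr, the growth hormone receptor, had a log2 fold change of -0.59 ± 0.19 (adjusted p = 0.347). For Igf1, the main product of growth hormone action in liver, the value was 0.43 ± 0.16 (adjusted p = 0.455).

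Stat5b, the factor that carries the growth hormone pulse to the nucleus, had between 857 and 2084 in the saline group and between 1132 and 1634 in LNA29 livers (log2 fold change 0.18 ± 0.19, limma adjusted p = 0.878). Zhx2, a repressor known to act on liver genes in adult mice and a known influence on Mup expression, had 0.25 ± 0.21 (adjusted p = 0.840), and LNA29 48 (868) lay inside the range of the other livers (439 to 943). The glucocorticoid receptor gene Nr3c1 had -0.59 ± 0.38 and the hepatocyte factor Hnf4a -0.05 ± 0.15 (adjusted p = 0.769 and 0.967). Cebpa had -0.40 ± 0.17, Rxra -0.26 ± 0.14 and Foxa1 -0.67 ± 0.38 (lowest adjusted p = 0.539). In LNA29 48 none of these but Foxa1 lay below all other livers.

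Other lipocalins were not called either. Of 10, all tested, 0 passed the adjusted threshold, 3 had an unadjusted p under 0.05, all lower (Orm2 with -0.89 ± 0.31, Orm1 with -0.74 ± 0.30 and Lcn2 with -1.33 ± 0.55, limma adjusted p from 0.405 to 0.536), against 5.97% of all genes lower, and the median was -0.48. Orm1, Orm2 and Lcn2 encode acute-phase carriers of plasma. Orm3, of the same family as Orm1, was lowest in LNA29 48 (37.7, or 2.0 reads, under the floor of 3) and in saline 49 (60.0). C8g and Ambp had -0.26 ± 0.22 and -0.26 ± 0.24.

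As the family is male-biased in many strains, genes of sex-biased liver expression were set beside it. Of 16 male-biased genes, 12 were tested, 0 passed the adjusted threshold, 2 had an unadjusted p under 0.05, both higher, against 1.95% of all genes, and the median was 0.36. Without LNA29 48 there were 4, all higher, against 2.27%, and the median was 0.30. The 2 with all livers were Serpina1e, a secreted protease inhibitor, with 2.33 ± 0.59 (limma adjusted p = 0.166) and Cyp4a12a, a fatty acid hydroxylase of male liver, for which no fold change is given, as it had at most 5.75 reads in any liver (adjusted p = 0.212). Slco1a1 had 0.50 ± 0.24, Cyp2d9 0.63 ± 0.39, Nudt7 -0.31 ± 0.19 and Gstp1 0.45 ± 0.33. Without LNA29 48 Cyp2d9 had 1.05 (unadjusted p = 0.000356, adjusted p = 0.0877) and Gstp1 0.24. Of the 12 livers LNA29 48 was the highest for Serpina1e and Gstp1 and the lowest for Cyp2d9 and Nudt7.

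Of 21 female-biased genes, 20 were tested, 1 fell and 0 rose past the adjusted threshold, 2 higher and 6 lower had an unadjusted p under 0.05 (1.95% and 5.97% of all genes), and the median was -0.39. Without LNA29 48 these were 3 and 7 (2.27% and 6.01% of all genes). The gene that fell was Acot3, an acyl-CoA thioesterase, with -1.32 ± 0.20 (limma adjusted p = 0.0224), a call that held in 18 of 22 alternatives (adjusted p up to 0.111) and was lost without saline 43, LNA29 50 or LNA29 54. Cyp2c40 had 0.61 ± 0.13 without overlap between the groups (adjusted p = 0.0981, exact permutation p = 0.00216), Cyp2b13 -0.99 ± 0.27, Cyp2b10 1.02 ± 0.40, Abcd2 -0.57 ± 0.22 and Cyp2b9 -0.49 ± 0.19.

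Of 12 abundant secreted proteins of hepatocytes, all tested, 0 passed the adjusted threshold and 1, Ahsg, had an unadjusted p under 0.05. Of all genes 0.16% and 7.91% did so, 1.95% counting only higher genes at the unadjusted p. The median of the 12 was 0.07, which turned to -0.02 without LNA29 48. Ahsg, the plasma glycoprotein fetuin-A, lay between 1212500 and 4270490 in the saline group and between 7841411 and 10351189 in LNA29 livers, without overlap (log2 fold change 1.67 ± 0.73, limma adjusted p = 0.582, exact permutation p = 0.00216). The SE of 0.73 is the moderated one and not the spread of Ahsg alone. LNA29 48 had the highest Ahsg, Apoa1 and Hpx of the 12 livers and the lowest Serpina3k. For Apoa1, Hpx, Ttr, Trf and Serpina3k the log2 fold change lay between -0.34 and 0.62. Without LNA29 48 that of Hpx moved from 0.27 to 0.015 and that of Serpina3k from 0.29 to 0.64.

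The genes outside the family whose log2 signal, after subtraction of each group mean, was most like the summed signal of the 7 genes over the 12 livers were Pcbp2, an RNA-binding protein (r = 0.928), Rhbg, an ammonium transporter (r = 0.909), Rarres1 (r = 0.897), Cyp2d9 (r = 0.890) and Plcxd1 (r = 0.877), from 10235 genes ranked. Without LNA29 48 the same r were 0.841, 0.828, 0.743, 0.725 and 0.762, and of the 5 only Pcbp2 was among the 10 genes most alike. BC089597 led there with 0.926, against -0.0099 over the 12 livers, followed by Cbx8 with 0.924 and Gm6682 with 0.920, so the choice of genes rested on that liver. All 5 were lowest in LNA29 48, where Rhbg had 56.6 against at least 250.0 elsewhere, and the values share libraries and scaling. They are given as a description.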

How the data were processed

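Single reads of 100 bases were mapped by the authors with MapSplice2 (build mm9 per the labels) and assigned to genes with RSEM, which divides reads between similar transcripts. The authors deposited each liver as a signal, in which the upper quartile of genes with reads was set to 1000 and a gene without reads to 1. Versions and annotation are not given in the sources used here. The table also holds the authors' group means, fold changes and p-values, which were not used, and 3 unnamed columns of values, which were not used here.

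Between 91.7% and 93.4% of the values above 1 were whole multiples of 1 read (within 0.005), so no count model was used. Values were compared as log2(signal + 1) with limma 3.58.1 (R 4.3.3, trend, Benjamini-Hochberg), which was checked on simulated data. Other steps ran in Python 3.11.15 (pandas 2.3.3, scipy 1.17.1, numpy 2.4.6). The floor was set at 3 reads. Sequences came from GENCODE M21 and RefSeq. Of each of 20 Mup rows 1 transcript was used, that with a coding length nearest 540 bases.

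Named genes were the 7 members, all other Mup rows, list genes with an adjusted p under 0.05 or otherwise the 6 smallest p of a list, Zhx2, Stat5b, Ghr, Nr3c1 and Hnf4a, and the 5 genes most like the summed signal among those with a mean of at least 50. Members and lists were chosen with earlier results of these data known. Alternatives were other pseudocounts, filters and scalings, array weights, omission of values over 1.5 SD from the group mean, and omission of single livers.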

Additional observations from a re-analysis of the deposited data

Results flagged for a closer look

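In groups of 6 livers a value was singled out when its gap to the nearest liver was above Dixon's critical share of the range of the group on the log2(signal + 1) scale, which chance does in about 1 of 20 groups, or 5.6 of the 112 groups looked at. There were 19 such values, 11 of them in LNA29 48 and 6 in saline 49.

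In LNA29 48 they were Mup3 at 18.53 (other LNA29 livers 19.93 to 20.30), Mup5 at 15.66 (18.05 to 18.28), Mup11 at 13.32 (18.17 to 19.10) and Mup12 at 7.64 (17.68 to 21.85) among the 7 genes. Among the other copies they were Mup1 at 8.12, Mup15 at 9.80, Mup17 at 11.88 and Mup18 at 10.55, all low, and Mup13 at 19.88, which was high (14.73 to 16.43 in the others). The sum of the 20 rows stood at 20.65 (23.71 to 24.21) and Orm3 at 5.28 (7.59 to 8.63).

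In saline 49 they were Mup5 at 16.40 (other saline livers 17.81 to 18.63), Mup9 at 14.05 (19.46 to 22.44), the sum of the 20 rows at 22.06 (23.67 to 24.23), Orm3 at 5.93, Cyp2c40 at 13.50 and Ahsg at 20.21. Mup8 was low in saline 51 at 16.47 (19.53 to 21.01), and Ghr was high in saline 43 at 11.85 (10.97 to 11.22). Rows of central copies share reads, so these values are not independent of each other.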

How the results depend on the processing

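Every alternative kept the direction of Mup11 and Mup20. Mup11 passed the threshold when values beyond 1.5 SD were discarded (log2 fold change 2.01) and when saline 49 and LNA29 48 were both left out (1.53), an alternative chosen after the data were seen, and Mup20 when values were discarded (0.85, adjusted p from 0.0127 to 0.725 over all alternatives). Mup3 turned to 0.11 when values were discarded, and Mup12 to 0.0058 with TMM scaling, 0.85 with array weights, 0.56 with discarding and 1.40 without both livers, none of them past the threshold. Members past the threshold were then 2 with discarding and 1 without both livers, and members with an unadjusted p under 0.05 were 2 with array weights, 2 with discarding and 2 without both livers. The share of all genes at that unadjusted p was not counted in these settings, nor with a single liver other than LNA29 48 left out. The unadjusted member counts there therefore cannot be read as a result about the members. All genes past the threshold came to 10 with a common median, 1 with a total without Alb, 58 with array weights, 217 with discarding, which removes the values farthest from a group mean, and 44 without both livers. The cause of the other moves was not tested.

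With each liver left out in turn, log2 fold changes ranged from -0.39 to 0.11 for Mup3, -0.50 to 0.063 for Mup4, -0.44 to 0.29 for Mup5, -0.99 to 0.58 for Mup7, 0.58 to 1.74 for Mup11, -0.78 to 2.12 for Mup12 and 0.56 to 0.74 for Mup20. Members past the threshold ranged from 0 to 1, members with an unadjusted p under 0.05 from 1 to 3 and all genes past it from 1 (without saline 43, LNA29 50 or LNA29 54) to 29 (without LNA29 48). Besides LNA29 48, the sign turned without saline 47 for Mup3 and Mup4, without saline 43 or LNA29 54 for Mup4, without saline 53 for Mup5, without saline 43 or 53 for Mup7, and without saline 43, 51 or 53 or LNA29 46 for Mup12. The log2 difference of the summed signal of the 7 genes was 0.42 with all livers, between 0.06 and 0.92 with a liver left out, and -0.27 when all 20 rows were summed. Count tests were not run, since too few values were whole reads. No paired analysis was possible because the groups share no replicate numbers.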

Other observations

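LNA29 48 lay at least 10-fold below the median of the other livers in 57 genes with a median of at least 100, of which 12 were Mup rows and 1 was the unmatched row LOC100048885 (629049 against a median of 7661357). Others were the male-biased Elovl3, an enzyme of fatty acid elongation (18.9 against a median of 273, a single read and so under the floor), and the female-biased Cyp3a44 (94.3 against 1017) and Sult3a1, a sulfotransferase that had no reads there (median 456 elsewhere). These genes came from the sex-biased lists and were chosen for their values in this liver. Mup10, a central copy, had between 9820 and 134929 in 8 livers and between 554711 and 2889370 in the other 4, of which 2 were saline and 2 LNA29 livers.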
